A study of Sus scrofa with 8 samples.

Results

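The cells described here are 262 of the 82394 barcodes that passed the quality limits in 8 single-cell libraries of pig somites and myotome (0.318%). They were selected on their own counts, by at least 1 UMI of MEOX1 and at least 1 of TCF15, with 0 UMIs of PAX3, PAX1, MYF5, MYOG, SOX10 and PAX6. A UMI is the tag of 1 captured RNA molecule. The levels of these 8 genes in the cells are thus set by the choice. A barcode passed with at least 200 genes, at most 30000 UMIs and at most 10% of its UMIs on the 13 mitochondrial genes. The cells were put forward as early paraxial mesoderm without PAX3 or PAX1. The levels below go against that name at E21 and E28, so they are called MEOX1+TCF15+ cells.

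MEOX1 and TCF15 encode transcription factors of the newly formed somite. MEOX1, together with MEOX2, patterns the somite, and TCF15 (paraxis) is needed for the somite to become an epithelial ball. Somites bud from the presomitic mesoderm under a segmentation clock that runs on NOTCH signalling, then split into a dermomyotome, marked by PAX3, and a sclerotome, marked by PAX1. Later derivatives include muscle, dermis, tendon, cartilage and the connective tissue of the trunk. In the pig genome build Sscrofa11.1, RefSeq places MEOX1 on chromosome 12 from 19431397 to 19452430 and TCF15 on chromosome 17 from 34626682 to 34632881.

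The study collected somites of Tibetan pigs (ZZ) and of the Duroc and Tibetan cross (DZ) at embryonic day (E) 16, 18 and 21, and the myotome, the muscle-forming layer of the somite, at E28. Each of the 8 stage and breed combinations had 1 library, made from the pooled tissue of 5 embryos of a single sow. The labels name no allele, transgene, agent or sort by a marker. The 2 breeds of a stage are therefore its only 2 libraries, and a p-value below measures the spread between such libraries. The E28 libraries differ from the others in tissue as well as in age, and stage and tissue cannot be told apart there.

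The libraries held between 22 and 57 MEOX1+TCF15+ cells. E16-ZZ gave 28 and E16-DZ 44, E18-ZZ 26 and E18-DZ 27, E21-ZZ 30 and E21-DZ 57, and E28-ZZ 22 and E28-DZ 28. As a share of barcodes this was 0.445% and 0.415% at E16, 0.252% and 0.261% at E18, 0.258% and 0.559% at E21, then 0.202% and 0.230% at E28, ZZ first. E21-DZ stood highest, with an exact 95% binomial interval of 0.424% to 0.724%, against 0.174% to 0.369% in E21-ZZ. These intervals cover counting error only.

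The share did not differ beyond the spread between libraries from early to late stages. It averaged 0.343% ± 0.101 (SD, n = 4) in the E16 and E18 libraries and 0.312% ± 0.166 (SD, n = 4) in the E21 and E28 libraries, a difference of -0.0308 percentage points (two-sided exact permutation test over 70 splits, p = 0.771). The smallest p this design allows is 0.0286. After every barcode was thinned to 2000 UMIs the difference was -0.0255 points (exact permutation p = 0.429).

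Finding both genes in 1 barcode was more frequent than the product of their single shares in every library. The ratio of found to product was smaller at later stages. Both are genes of the rule, and barcodes of unlike depth and cell type were pooled, so the ratio does not measure co-expression. In E16-ZZ 51 barcodes held both where the product gave 8.79, and in E16-DZ 104 against 14.2. At E18 the counts were 111 against 31.0 and 90 against 25.6. At E21 they were 69 against 26.2 and 111 against 51.5, and at E28 31 against 17.4 and 40 against 27.5. The ratio of found to product thus went from 5.80 and 7.32 at E16 to 1.78 and 1.46 at E28. Over the same stages the share of barcodes with MEOX1 went from 6.81% and 6.57% to 15.7% and 17.0%. Depth was not matched in this comparison. Of the 607 barcodes with both genes, 345 held at least 1 UMI of an excluded gene, and 120 of these held exactly 1.

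**Figure D1:**
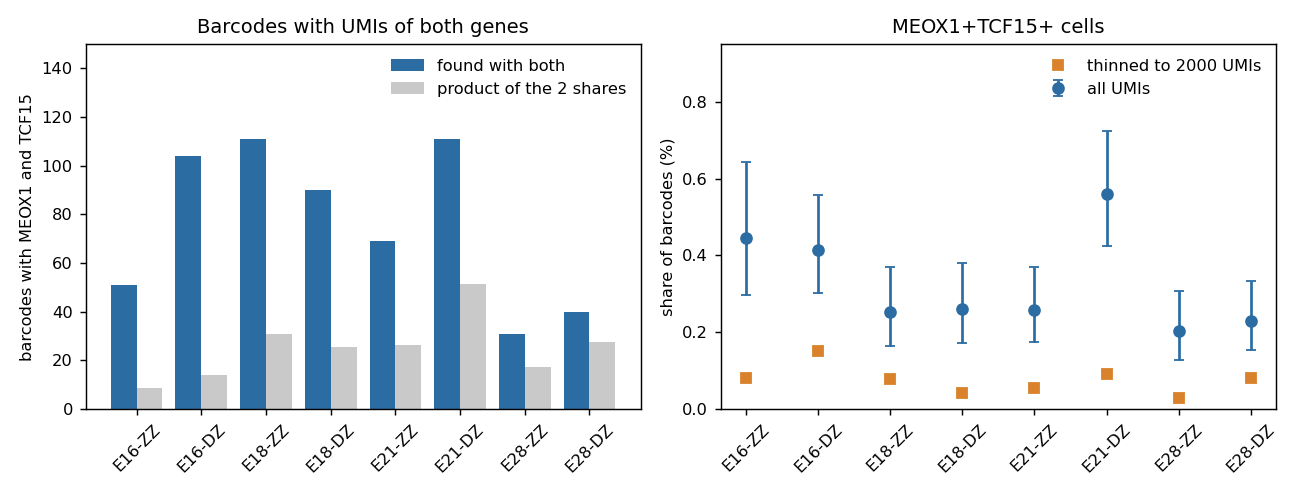
Left, number of barcodes with UMIs of both MEOX1 and TCF15 per library (blue) beside the product of the shares with each gene (grey). Right, share of barcodes (%) that were MEOX1+TCF15+ cells, with exact 95% binomial intervals (blue) and after thinning to 2000 UMIs (orange). The ratio of found counts to the product is highest at E16, and E21-DZ has the highest share with all UMIs, at 0.559%.

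The selection rests on few molecules. TCF15 was found at exactly 1 UMI in 247 of the 262 cells and MEOX1 in 185, and 174 cells had exactly 1 of each. Among barcodes with no UMI of an excluded gene, 6050 had MEOX1 but no TCF15 and 549 had TCF15 but no MEOX1. These lay just outside the rule, as did the 120 barcodes with both genes and 1 UMI of an excluded gene. When all barcodes were thinned to 2000 UMIs, 57 met the rule.

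MEOX1 and TCF15 were also found in barcodes of other cell types. Among erythroid barcodes, with median depths of 3951 to 12283 UMIs, 0% to 7.27% had a MEOX1 UMI and 0% to 2.70% a TCF15 UMI. Over all barcodes, with median depths of 3496 to 6338 UMIs, MEOX1 was found in 6.57% to 18.4% and TCF15 in 1.02% to 2.75%. Within libraries, TCF15 was found in 0% to 1.47% of erythroid barcodes at E16, E18 and E21 against 1.90% to 2.75% of all barcodes. At E28 it was found in 1 of 70 and 2 of 74 erythroid barcodes, 1.43% and 2.70%, against 1.02% and 1.33% of all. Among neural barcodes of E16 to E21 the share was 0% to 1.03%. Among endothelial barcodes, with median depths of 7974 to 14044 UMIs, 1.63% to 9.23% had TCF15, above the share of all barcodes in 7 of the 8 libraries, and 1.39% to 10.8% had MEOX1, below it in all 8.

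The cells had median depths of 4080 to 7029 UMIs and 1750 to 2358 genes, and between 121241 and 343115 UMIs in all per library. Levels are given as CPM, UMIs scaled to a total of 1000000 over all MEOX1+TCF15+ cells of a library, so that 1 UMI was worth 2.91 CPM in E21-DZ and 8.25 CPM in E28-ZZ. A summed level does not separate fewer cells with a transcript from fewer transcripts per cell. E16-ZZ stood apart, with 39.2% of its barcodes over the mitochondrial limit against 1.05% to 9.15% in the others. Cell Ranger 3.1.0 was named by both E16 matrices and 3.0.2 by the other 6, so version and stage cannot be told apart. Any pair of libraries shared 23 to 49 barcode sequences, at most 0.453% of the smaller library. Of the cells, 32 were among the barcodes with the highest doublet scores. ZZ first, these were 4 and 4 cells at E16, 6 and 0 at E18, 4 and 8 at E21. At E28 they were 3 and 3. The barcodes so marked were 317 of 6297 and 899 of 10603 at E16, and 849 of 10301 and 856 of 10347 at E18. They were 1078 of 11610 and 831 of 10194 at E21, and 945 of 10869 and 1185 of 12173 at E28.

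At E16 some of the cells carried genes of the segmenting somite. At least 1 of DLL3, CER1, RIPPLY1, TBX6, MESP1 and MESP2 had a UMI in 14 of 28 cells of E16-ZZ, 13 of 44 of E16-DZ, 7 of 26 of E18-ZZ, 4 of 27 of E18-DZ and 1 to 4 cells of each later library. Depth was not matched in these counts. After thinning, more than 1 gene of a wider segmentation list was found in 7.14% and 15.9% of the E16 cells. The other E16 barcodes gave 2.96% and 4.50%, ZZ first in both cases. At E18 the shares were 0% in both libraries, against 2.13% and 1.57% of the other barcodes. Later the cells lay above the other barcodes in E28-ZZ alone, at 4.55% against 2.42%. MSGN1, TBXT, HES7 and WNT3A, core genes of the presomitic mesoderm, had 0 UMIs in the cells of all 8 libraries. DLL3, a NOTCH ligand of the segmentation clock, was found in 5 of 28 and 8 of 44 of the E16 cells, and stood at 59.8 CPM in E16-ZZ and 125 CPM in E16-DZ, at 5.23 and 0 CPM at E18, and at 0 in all 4 later libraries. The E16 libraries did not overlap with any other. All other barcodes of the E16 libraries held 6.39 and 13.0 CPM of DLL3. From E16 to E18 its UMIs went from 48 to 1, a ratio of 33.2 with an exact counting interval of 5.67 to 1336, which did not pass (edgeR quasi-likelihood test, Benjamini-Hochberg adjusted p = 0.0807).

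CER1, a secreted antagonist that marks the front of the forming somite, was at 32.2 and 53.6 CPM at E16 and had no UMI in the 6 later libraries. RIPPLY1, a repressor that ends the segmentation programme, was at 13.8 and 57.2 CPM at E16 and likewise had no later UMI. TBX6, which specifies paraxial mesoderm, was at 13.8 and 28.6 CPM at E16 and had 1 UMI later, in E21-ZZ. These 3 genes rested on few cells and were too low to be tested. Among the E16 cells, ZZ first, CER1 was found in 1 and 4, RIPPLY1 in 1 and 5, and TBX6 in 2 and 4.

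Some of these genes were found in the same cells. In E16-DZ 8 of 44 cells had DLL3, 5 had RIPPLY1 and 4 had CER1. All 5 RIPPLY1 cells and all 4 CER1 cells also had DLL3, and 3 cells had RIPPLY1 and CER1. In E16-ZZ the 1 cell with RIPPLY1 was also the 1 with CER1, and it had DLL3, while 4 of the 5 DLL3 cells there had neither. UNCX, a homeobox gene of the rear part of the somite, was found in 7 and 6 of the E16 cells and in none of those with CER1 or RIPPLY1. With at most 5 cells per gene and library, this absence cannot show that the genes exclude each other. 1 cell of E16-ZZ had UNCX and DLL3. TBX18, which marks the front part, had a UMI in 0 of 262 cells, so the planned comparison of TBX18 between cells with and without UNCX gave no value. Counted as 3 in 262, this allows a share of cells with a UMI of up to 1.15%. That limit pools cells of all libraries and stages as 1 group, and the limit for any single library or stage is wider.

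UNCX itself was found at every stage. It was at 46.0 and 25.0 CPM at E16, 41.8 and 46.0 at E18, 70.8 and 96.2 at E21, then 41.2 and 0 CPM at E28. The log2 change from E18 to E21 was 1.09 ± 0.57 (SE, edgeR adjusted p = 0.407). MESP1, a factor of early mesoderm and of the segment boundary, was at 50.6 and 25.0 CPM at E16, 36.6 and 26.3 at E18, and 2.91 to 8.25 CPM later. The 4 early libraries lay above the 4 late ones. Of the 20 genes of the presomitic and segmentation list, 13 had a UMI and 2 were high enough to be tested, and none passed in any of the 3 stage comparisons.

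Other genes of the young somite and of its epithelium were found at E16 and E18. DACT2, a regulator of WNT and TGF-beta signalling, was at 110 and 121 CPM at E16, 88.9 and 72.3 at E18, 29.5 and 14.6 at E21, then 8.25 and 0 CPM at E28. No stage overlapped with another. From E18 to E21 the log2 change of DACT2 was -1.89 ± 0.52 (SE, edgeR adjusted p = 0.0516). Elsewhere in the libraries DACT2 was at 20.9 to 26.6 CPM in the early libraries and 2.72 to 6.16 CPM in the late ones.

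FST (follistatin), which binds activin and BMP ligands, was at 124 and 161 CPM at E16, 78.4 and 85.4 at E18, 23.6 and 26.2 at E21, then 57.7 and 123 CPM at E28. It was lowest at E21. Its log2 change was -1.66 ± 0.45 from E18 to E21 (edgeR adjusted p = 0.0526), and it rose by 1.85 ± 0.46 from E21 to E28 (edgeR adjusted p = 0.0464), a call that was lost without E16-DZ or any of the 4 late libraries. ALDH1A2, the retinoic acid synthesis enzyme of the somite, was at 27.6 and 71.5 CPM at E16, 62.7 and 52.6 at E18, 17.7 and 8.74 at E21, then 0 and 13.0 CPM at E28. Its log2 change from E18 to E21 was -2.22 ± 0.76 (edgeR adjusted p = 0.134).

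MEOX2, the partner of MEOX1, was at 13.8 to 46.0 CPM in the early libraries and 76.7 to 165 CPM in the late ones, with no overlap. Its log2 change from E18 to E21 was 1.80 ± 0.49 (edgeR adjusted p = 0.0533).

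**Figure D2:**
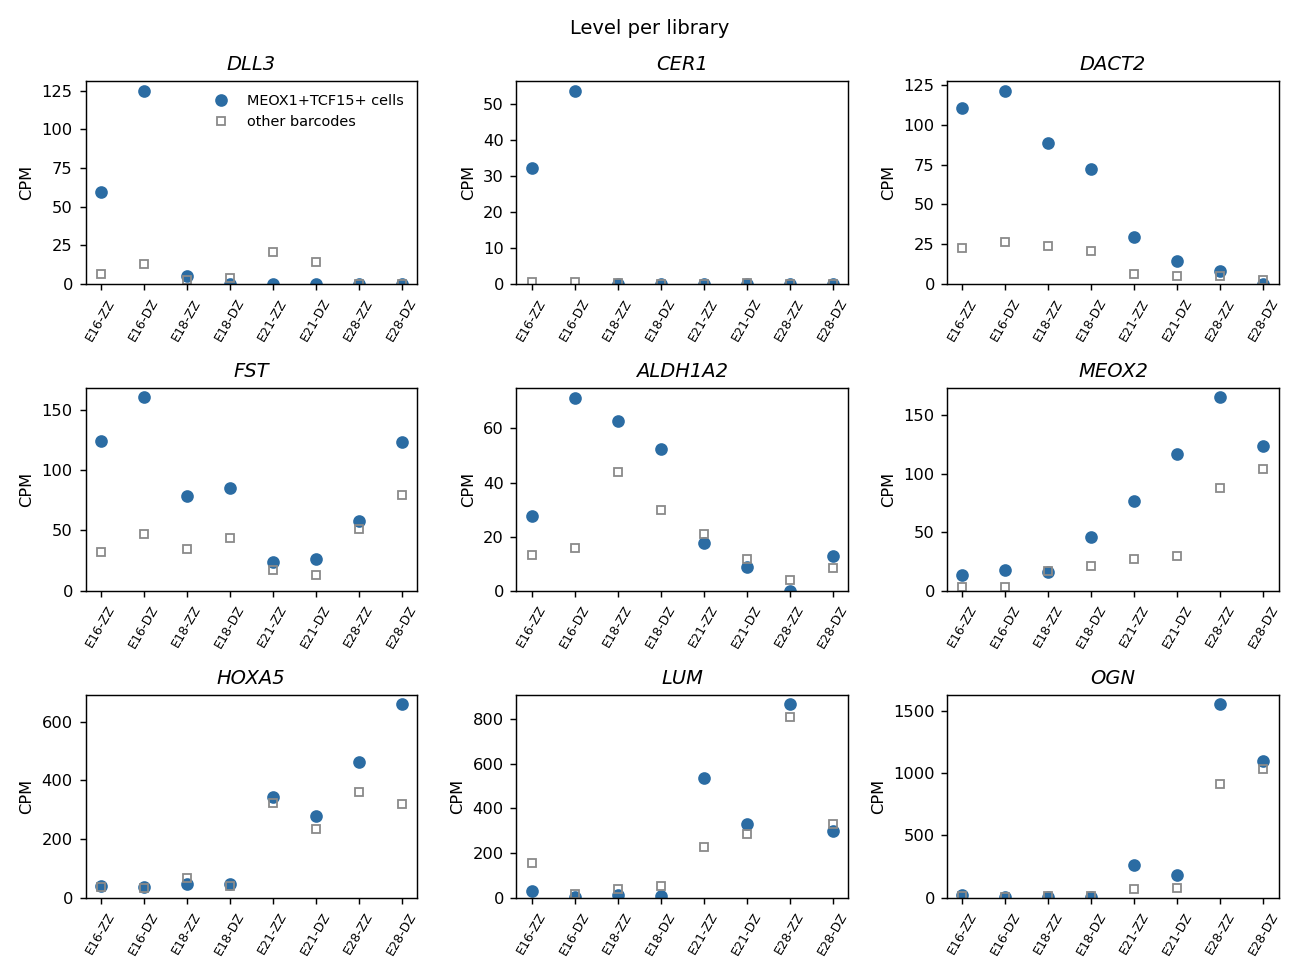
Level (CPM) of 9 genes in the MEOX1+TCF15+ cells (filled circles) and in all other barcodes (open squares) of each of the 8 libraries, 1 point per library. DLL3 and CER1 are highest in the cells of E16, DACT2 and FST are higher in the early cells than in the other barcodes, and HOXA5, LUM and OGN are higher at E21 and E28 than before.

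Between E16 and E18, 0 of 3403 genes tested rose and 3 fell (0.0882% called), and 313 had an unadjusted p under 0.05. With the highest Scrublet doublet scores removed 21 genes passed, and with any count tested 27, the 3 among them both times. The run without the highest doublet scores also lacked E28-ZZ, which fell to 19 cells, under the limit of 20. KRT18, a keratin of simple epithelia, was at 699 and 322 CPM at E16 and 230 and 98.6 CPM at E18, a fall of 1.74 ± 0.26 on the log2 scale (edgeR adjusted p = 0.0185). APOE, a lipid carrier, was at 152 and 157 CPM and then at 41.8 and 13.1 CPM, a fall of 2.53 ± 0.44 (edgeR adjusted p = 0.0241). FABP5, a fatty acid binding protein, was at 290 and 357 CPM and then at 125 and 98.6 CPM, a fall of 1.61 ± 0.28 (edgeR adjusted p = 0.0241). The stages did not overlap for any of the 3 genes.

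DESeq2 called none of these 3, and each call was lost without at least 3 of the 8 libraries left out singly. KRT18 and APOE were also lower at E18 in the other barcodes, at 2379 and 1783 against 771 and 574 CPM for KRT18, and 1245 and 828 against 213 and 243 CPM for APOE. FABP5 stood at 152 and 147 against 136 and 148.9 CPM there. Without E16-ZZ, the library that stood apart, 4 genes passed, with 1 of the 3 among them, and KRT18 and APOE lost their call.

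The change from E18 to E21 was broader. Of the 3403 genes, 70 rose (2.06% called higher) and 36 fell (1.06% called lower), 3.11% in all. Each had the same direction in ZZ and DZ, but the call was made on these same libraries, so this is no separate support. DESeq2 called 19 genes, every one of them among these 106 and in the same direction. Leaving out E18-ZZ, E18-DZ or E21-DZ gave 42, 47 and 36 calls, of which 36, 35 and 30 were among the 106. Of the 41 genes named for this step, 10 kept their call with each library left out in turn: LUM, OGN, STMN2, CHODL, HOXA5, HOXA7, KRT8, KRT14, KRT18 and LDHA. The other 31 lost it without at least 1 library, 27 of them without E21-DZ and 24 without E18-DZ. The median log2 change over all genes was 0.01.

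Connective tissue genes were among the largest rises. LUM (lumican), a small proteoglycan of collagen fibrils, was at 27.6 and 3.57 CPM at E16, 10.5 and 6.57 at E18, 537 and 329 at E21, then 866 and 298 CPM at E28. The E18 libraries held 3 UMIs of LUM and the E21 libraries 204, a ratio of 45.6 with an exact counting interval of 15.4 to 223. The rise had an edgeR adjusted p of 2.3e-06.

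OGN (osteoglycin), a related proteoglycan, was at 3.57 to 23.0 CPM in the 4 early libraries, 265 and 181 CPM at E21, then 1551 and 1096 CPM at E28. It rose at both later steps (edgeR adjusted p = 1.26e-05 and 1.76e-05), from 2 to 107 UMIs between E18 and E21, a ratio of 35.8 with an exact counting interval of 9.68 to 300, and by 2.55 ± 0.25 on the log2 scale between E21 and E28. DCN (decorin), which lies beside LUM on chromosome 5, was at 20.9 and 46.0 CPM at E18 and 283 and 207 CPM at E21, a rise of 2.99 ± 0.66 (edgeR adjusted p = 0.0165). LUM and OGN kept their calls under every alternative run, while DCN lost it without E18-ZZ, without E21-DZ and by DESeq2. Of the 10 genes of the fibroblast and connective tissue list, 8 were tested, 3 rose (2.06% of all genes were called higher) and 5 did not pass, with a median log2 change of 1.41 against 0.01 over all genes.

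These genes were in most of the late cells. At least 1 UMI of OGN or LUM was found in 28 of 30 cells of E21-ZZ, 44 of 57 of E21-DZ, 22 of 22 of E28-ZZ and 27 of 28 of E28-DZ. In the early libraries it was found in 4 of 28, 2 of 44, 2 of 26 and 2 of 27. At 2000 UMIs per cell, at least 2 connective tissue genes were found in 80.7% to 100% of the late cells and in 2.27% to 46.2% of the early ones (96.7% to 100% and 20.5% to 81.5% with all UMIs). In the other barcodes, the thinned shares were 52.2% to 92.2% and 19.3% to 41.7%.

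HOX genes set position along the body axis. Of the 39 genes of the list 29 had a UMI, 8 were tested, and 6 rose from E18 to E21 (2.06% of all genes were called higher), with a median log2 change of 2.52. HOXC4 and HOXB9 did not pass, with log2 changes of 1.09 ± 0.48 and -0.38 ± 0.49 (SE). HOXA5 was at 41.4 and 35.7 CPM at E16, 47.0 and 46.0 at E18, 342 and 280 at E21, then 462 and 661 CPM at E28, a rise of 2.76 ± 0.33 from E18 to E21 (edgeR adjusted p = 7.77e-05). HOXA7 was at 26.1 and 6.57 CPM at E18 and 260 and 256 CPM at E21, a rise of 3.89 ± 0.49 (edgeR adjusted p = 0.000107). HOXC8 rose by 2.53 ± 0.44, and HOXC6, HOXA9 and HOXC9 by 2.41, 2.52 and 2.55.

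The other barcodes held HOXA5 at 66.8 and 40.8 CPM at E18 and at 323 and 234 CPM at E21. The axial level of the dissected somites was not given in the sources used here, and its part in the HOX levels was not tested. None of the 8 tested HOX genes passed from E21 to E28 or from E16 to E18.

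Several genes had no UMI in the E18 cells and rose to E21. CHODL, a C-type lectin-like membrane protein, was at 0 in both E18 libraries and at 88.5 and 119 CPM at E21, at least 12.5-fold higher against a floor of 3 UMIs over the stage. EN1, a homeobox gene of the central dermomyotome and dorsal dermis, was at 0 in all 4 early libraries and at 82.6 and 23.3 CPM at E21, at least 4.91-fold higher. VCAM1, a cell adhesion receptor, was at 23.6 and 64.1 CPM at E21, at least 5.81-fold higher. VCAM1 lost its call when E18-ZZ, E18-DZ or E21-DZ was left out, EN1 also without E21-ZZ or E28-ZZ, and CHODL with none of the 8.

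PMEPA1, a target and inhibitor of TGF-beta signalling, was at least 10.5-fold higher, with 35.4 and 119 CPM. BCL11A, a zinc finger repressor, was at least 8.04-fold higher, with 59.0 and 75.8 CPM. STMN2, a microtubule regulator best known from neurons, was at 10.5 and 13.1 CPM at E18 and 920 and 367 CPM at E21, a rise of 5.70 ± 0.59 (edgeR adjusted p = 1.25e-05). All other barcodes held STMN2 at 42.1 and 115 CPM at E18 and at 1635 and 664 CPM at E21. The part of RNA from other cells in the rise was not tested. PCDH9, a protocadherin, went from no UMI to 64.9 and 23.3 CPM, and MPPED2 from 0 and 6.57 CPM to 59.0 and 125 CPM (edgeR adjusted p = 0.0321 and 0.0048). DESeq2 called STMN2 but not PCDH9, MPPED2, PMEPA1, BCL11A, CHODL, EN1 or VCAM1.

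In the BMP and TGF-beta, FGF, NOTCH and ephrin lists 1 or 2 tested genes rose, where 2.06% of all genes were called higher. None of the 9 tested WNT, 8 retinoic acid and 3 hedgehog genes did. TGFB2, a TGF-beta ligand and 1 of 7 tested genes of its list to pass, rose by 2.50 ± 0.64 from 36.6 and 6.57 CPM to 183 and 93.3 CPM (edgeR adjusted p = 0.0381). HES1, a NOTCH target and 1 of 4 of its list, rose by 2.01 ± 0.44 from 41.8 and 26.3 CPM to 106 and 154 CPM (edgeR adjusted p = 0.0157). Of the FGF list ETV4 and SPRED1, a target and a feedback inhibitor of the pathway, rose and 4 tested genes did not pass. EPHA3, an ephrin receptor, was at 0 and 19.7 CPM at E18 and 53.1 and 93.3 CPM at E21, 3 against 41 UMIs and a ratio of 9.16 with a counting interval of 2.92 to 46.2 (edgeR adjusted p = 0.0474).

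CDH11, a cadherin of mesenchyme, rose by 2.28 ± 0.48 from 52.3 and 6.57 CPM to 159 and 137 CPM (edgeR adjusted p = 0.013). It was the 1 of 17 tested adhesion and matrix genes that passed (2.06% of all genes were called higher). The immediate-early genes FOS, FOSB and EGR1, which respond to cell dissociation as well as to growth signals, also rose, with 57.5 and 105 CPM of FOS at E18 and 295 and 510 CPM at E21. FOS was at 115 and 242 CPM at E18 and at 348 and 521 CPM at E21 in the other barcodes, and the part of tissue handling was not tested. FOS rose again to 734 and 3067 CPM at E28 (edgeR adjusted p = 0.0233), a call lost without E21-DZ or E28-DZ, and stood at 608 and 2619 CPM there in the other barcodes.

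Keratins led the falls. KRT8, the partner of KRT18, was at 1854 and 697 CPM at E16, 627 and 572 at E18, 0 and 2.91 at E21, then 0 at E28. It was found in 207 UMIs at E18 and 1 UMI at E21, a ratio of 309 with an exact counting interval of 54.8 to 12262 (edgeR adjusted p = 2.29e-06). KRT18 fell from 59 UMIs to 0, at least 29.4-fold lower, and KRT14, a keratin of basal epithelia, from 21 UMIs to 0, at least 10.4-fold lower.

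The keratins were lower in these cells than in the other barcodes of every library. KRT8 stood there at 4355 and 3479 CPM at E16, 1544 and 1311 at E18, and 2.92 to 75.8 CPM later. EPCAM, a defining marker of epithelia, was found in 2 of 28, 2 of 44, 1 of 26 and 1 of 27 early cells and in none later. After thinning, 15.4% to 35.7% of the early cells held at least 2 surface epithelium genes, against 20.6% to 59.7% of the other barcodes. Free RNA and keratins of the cells themselves were not separated here.

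Some glycolytic enzymes fell. Of the 18 genes of that list 11 were tested, 4 fell from E18 to E21 (1.06% of all genes were called lower), 7 did not pass and none rose, with a median log2 change of -0.76. LDHA, which makes lactate, was at 962 and 868 CPM at E16, 789 and 427 at E18, 224 and 102 at E21, then 223 and 175 CPM at E28. It fell by 1.89 ± 0.27 (edgeR adjusted p = 0.000465) and kept that call under every alternative run. PGK1, PGAM1 and PKM, which act in the second stage of glycolysis, fell by 1.52, 1.23 and 0.85. SLC16A3, a lactate exporter, fell by 2.69 ± 0.70 from 105 and 32.9 CPM to 5.90 and 11.7 CPM (edgeR adjusted p = 0.0418). In the other barcodes LDHA went from 719 and 609 CPM to 218 and 179 CPM.

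Further falls to E21 were in genes of mixed roles. MT1X, a metallothionein, was at 52.3 and 170.9 CPM at E18 and 5.90 and 0 CPM at E21, and DRAXIN, an axon guidance protein, and ALDH2, an aldehyde dehydrogenase, also fell. HAPLN1, a link protein of hyaluronan matrix, was at 73.2 and 112 CPM at E18 and 5.90 and 2.91 CPM at E21, 31 against 2 UMIs and a ratio of 23.1 with a counting interval of 5.89 to 200 (edgeR adjusted p = 0.00575). NTN5, of the netrin family, fell by 3.07 ± 0.72 and NRP2, a semaphorin co-receptor, by 2.75 ± 0.58 (edgeR adjusted p = 0.0256 and 0.0132). NTN5 was at 78.4 and 151.2 CPM at E18 against 15.0 and 20.9 CPM in the other barcodes.

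HMGA1, a chromatin protein of early embryonic cells, was at 1735 and 1951 CPM at E16, 1609.9 and 1604 at E18, 773 and 676 at E21, then 297 and 162 CPM at E28. It fell at both later steps, by 1.09 ± 0.23 and 1.70 ± 0.27 (edgeR adjusted p = 0.013 and 0.0022). The other barcodes held 1396 and 1336 CPM at E18, 719 and 586 CPM at E21, then 370 and 248 CPM at E28. LIN28B, a regulator of developmental timing, was at 107 to 158 CPM in the early cells, 47.2 and 55.4 at E21 and 8.25 and 19.5 at E28. Its log2 change from E18 to E21 was -1.29 ± 0.37 (edgeR adjusted p = 0.0648).

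Between E21 and E28, 50 of 3403 genes rose (1.47% called higher) and 9 fell (0.264% called lower), 1.73% in all. Each again had the same direction in both breeds, which is no separate support, since the call was made on these same libraries. DESeq2 called 11, each of them among the 59. Leaving out E21-DZ, E28-ZZ or E28-DZ gave 25, 25 and 14 calls, of which 18, 18 and 11 were among the 59. Of the 28 genes named, OGN, POSTN, SFRP1, SFRP2 and EBF3 kept their call with each library left out in turn, and 23 lost it without at least 1, 20 of them without E28-DZ. By fitted fold change the first was CAVIN1, a coat protein of caveolae, with 0 UMIs at E21 and 16 at E28, at least 9.93-fold higher against a floor of 3 UMIs over the stage (edgeR adjusted p = 0.0386). CAVIN1 was tested in 2 of the 8 fits with 1 library left out, lost its call in both and was not called by DESeq2. Genes of the secreted matrix were among the other rises. POSTN (periostin), which links collagen to cells, was at 5.90 and 23.3 CPM at E21 and 751 and 292 CPM at E28, a rise of 4.59 ± 0.54 (edgeR adjusted p = 0.000129) that DESeq2 did not call. It was at 138 and 88.1 CPM at E21 in the other barcodes and 508 and 352 CPM at E28.

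COL1A1 and COL1A2 encode the chains of type I collagen. COL1A1 was at 260 and 242 CPM at E21 and 899 and 940 CPM at E28, a rise of 1.86 ± 0.34 (edgeR adjusted p = 0.00697). COL1A2 rose by 1.58 ± 0.27 from 643 and 577 CPM to 2252 and 1563 CPM (edgeR adjusted p = 0.00297). With POSTN and OGN they made 4 rises among the 8 tested connective tissue genes (1.47% of all genes were called higher), with a median log2 change of 1.44. Summed over the 10 genes of the list, the cells went from 3108 and 2346 CPM at E21 to 8561 and 6251 CPM at E28. The other barcodes went from 2080 and 2469 CPM to 6881 and 6171 CPM, so the rise was not particular to the cells. COL14A1, a collagen that associates with fibrils, had 3 UMIs at E21 and 40 at E28, a ratio of 24.8 with an exact counting interval of 7.90 to 125 (edgeR adjusted p = 0.00372). HTRA1, a secreted protease, and TXNIP, an inhibitor of thioredoxin, also rose. So did SPRY1, an FGF feedback inhibitor and the 1 of 6 tested genes of its list to pass, a call lost without any 1 of the 4 late libraries. FN1 (fibronectin) rose from 271 and 262 CPM to 825 and 953 CPM and TNC (tenascin C) from 41.3 and 55.4 CPM to 181 and 149.1 CPM.

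SFRP1 and SFRP2, secreted antagonists of WNT, were the 2 of 9 tested genes of the WNT list that rose (1.47% of all genes were called higher), and 7 did not pass. SFRP2 was at 100 and 93.3 CPM at E21 and 528 and 726 CPM at E28, a rise of 2.70 ± 0.28 (edgeR adjusted p = 3.06e-05). SFRP1 rose by 1.83 ± 0.23 from 212 and 207 CPM to 619 and 888 CPM (edgeR adjusted p = 0.000219). FRZB, a further antagonist of that family, was too low to be tested, with 9 UMIs at E21 and 0 at E28. DKK2, which is not on the list, went from 41.3 and 20.4 CPM to 214 and 136 CPM (edgeR adjusted p = 0.0233). EBF3, a factor of connective tissue and muscle precursors, rose by 2.76 ± 0.33 from 41.3 and 43.7 CPM to 223 and 357 CPM (edgeR adjusted p = 0.000129).

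ALDH1A1, an enzyme of retinoic acid synthesis, had 1 UMI at E21 and 36 at E28, a ratio of 67.0 with an exact counting interval of 11.3 to 2719 (edgeR adjusted p = 0.0132). All 12 UMIs of E28-ZZ came from 1 of 22 cells and the 24 of E28-DZ from 6 of 28, and the call was lost without E21-DZ, without E28-DZ and by DESeq2. PRRX1, a homeobox gene of limb and body wall mesenchyme, rose by 1.99 ± 0.43 from 53.1 and 32.1 CPM to 140 and 182 CPM (edgeR adjusted p = 0.0226). MEST, an imprinted gene of embryonic mesoderm, rose by 1.28 ± 0.26 to 478 and 460 CPM from 230 and 160 CPM (edgeR adjusted p = 0.0132).

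The 9 falls to E28 (0.264% of all genes called lower) were in genes of mixed roles. DES (desmin), the intermediate filament of muscle, was at 82.6 and 102 CPM at E21 and 16.5 and 13.0 CPM at E28, a fall of 2.66 ± 0.55 (edgeR adjusted p = 0.0161). DES in all other barcodes stood at 108 and 103 CPM and then at 108 and 208 CPM. CENPF, of the kinetochore, fell by 1.79 ± 0.30 from 938 and 638 CPM to 173 and 266 CPM, and CCNB1, the mitotic cyclin, by 1.71 ± 0.39 from 212 and 134.1 CPM to 66.0 and 38.9 CPM (edgeR adjusted p = 0.00275 and 0.028). Of 30 tested G2/M genes CENPF alone passed, and of 21 tested S phase genes none did. AIF1L, CKB and PPP1R14B also fell. MEIS2, a HOX cofactor, fell by 2.14 ± 0.49 (edgeR adjusted p = 0.0277).

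**Figure D3:**
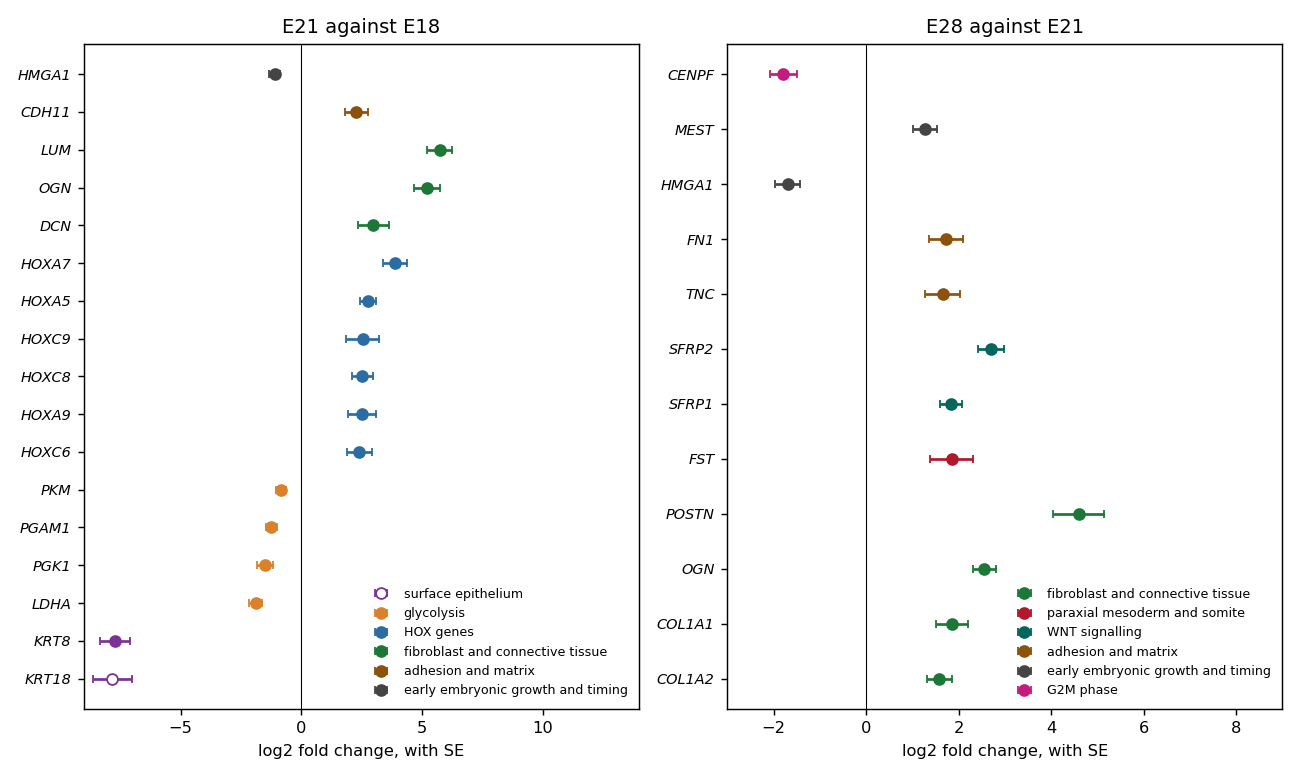
Log2 fold change with its SE (horizontal axis) of genes from 9 fixed lists that passed the edgeR test in the MEOX1+TCF15+ cells, for E21 against E18 (left) and E28 against E21 (right). The open mark is KRT18, which had no UMI at E21, so its fitted value is not a bound. HOX and connective tissue genes lie to the right at E21, with keratins and glycolytic enzymes to the left.

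Cell cycle scores of the cells were high at E16 and E18. After thinning to 2000 UMIs, 96.4% and 97.7% of the E16 cells, 96.0% and 100% of the E18 cells, 82.8% and 80.7% of the E21 cells, and 63.6% and 60.7% of the E28 cells were scored as S or G2/M. The other barcodes gave 85.3% and 86.4%, 87.0% and 87.8%, 52.9% and 57.0%, and 42.5% and 39.2%. The share was higher in the MEOX1+TCF15+ cells of all 8 libraries. All 4 early libraries lay above all 4 late ones. No test of these shares was run, and they are scores from RNA, which free RNA can shift. Summed over their list, the G2/M genes were at 5977 and 5320 CPM at E16, 5828 and 7072 at E18, 7732 and 5645 at E21. At E28 they were at 3802 and 4831 CPM. The S phase genes were at 3391 and 3319 CPM at E16, 4610 and 4180 at E18, 3509 and 3322 at E21. At E28 they were at 2689 and 3035 CPM. These sums did not separate E21 from the early libraries, while E28 lay below them. Of the genes behind the scores, CENPF was the 1 of 30 tested G2/M genes that passed at any stage step, and 0 of 21 tested S phase genes did (edgeR). Of all genes, 0.0882% were called from E16 to E18, 3.11% from E18 to E21 and 1.73% from E21 to E28.

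**Figure D4:**
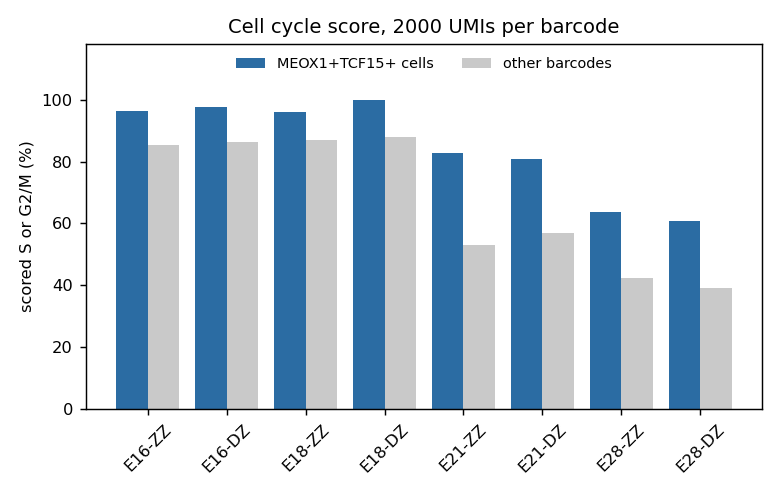
Share (%) of MEOX1+TCF15+ cells (blue) and of all other barcodes (grey) scored as S or G2/M in each library, after thinning to 2000 UMIs per barcode. The blue bars lie above the grey ones in all 8 libraries and are lower at E21 and E28 than at E16 and E18.

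Between DZ and ZZ, with stage in the fit, 0 of 3403 genes passed (0% called), with 160 at an unadjusted p under 0.05, a smallest adjusted p of 0.212, and 0 calls by DESeq2. Leaving out 1 library gave 1 to 8 calls, testing genes with any count 8, and removing the highest doublet scores 2, in a run that also lacked E28-ZZ. The genes with the smallest p were KLF2 and TNNT1, with fitted log2 differences of 3.45 ± 0.67 and 2.31 ± 0.52 (DZ over ZZ), and KRT14, KRT18 and LUM, at -1.67 ± 0.37, -1.20 ± 0.25 and -1.10 ± 0.25. The 2 E21 levels of LUM were 537 CPM in ZZ and 329 CPM in DZ, and the E28 levels 866 and 298 CPM.

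Markers of other cell types differed from list to list. The summed erythroid genes were lower in the cells than in the other barcodes of all 8 libraries, at 64.8 to 1187 CPM against 3991 to 14850 CPM, and surface epithelium genes were lower in all 8 too. The endothelial list was higher in the cells of E18-DZ, at 624 against 402 CPM, and lower in those of the other 7 libraries. The neural crest list was higher in E28-ZZ alone, at 355 against 165 CPM. The neural tube list was higher in both E16 libraries, at 313 against 130 CPM in ZZ and 350 against 172 CPM in DZ, and in both E18 libraries. NES, an intermediate filament gene of progenitor cells, made up nearly all of that sum, with 304 and 343 CPM in the E16 cells, while FABP7 was at 4.60 and 7.15 CPM in them against 15.5 and 24.6 CPM in the other barcodes and OLIG2, DBX1 and SOX3 had 0 UMIs in the cells. The part of such cells or of their RNA in the results was not tested. HBE1, an embryonic globin, was at 25.9 to 826 CPM in the cells against 2504 to 9138 CPM in the other barcodes. At 2000 UMIs, at least 2 endothelial genes were found in 3.57% to 9.09% of the early cells and 0% to 3.51% of the late ones, against 4.89% to 13.6% and 1.46% to 2.38% of the other barcodes. This share was above that of the other barcodes in E18-ZZ and in both E21 libraries. The endothelial markers PECAM1 and CDH5 were at 0 in 5 of the 8 libraries each, and in E18-DZ 1 cell of 27 carried all PECAM1 UMIs. MYOD1, of committed myoblasts, was found in 1 cell of E21-DZ and 1 of E28-DZ. The summed skeletal muscle list was lower in the cells of all 8 libraries, though at 811 against 834 CPM in E16-DZ. PAX9, a partner of PAX1 in the sclerotome, was found in 4 cells in all. The summed sclerotome list was nonetheless higher in the cells at E16, at 290 and 318 against 161 and 159 CPM. It was also higher in both E18 libraries, E21-ZZ and E28-ZZ, and lower in E21-DZ and E28-DZ. COL2A1, of that list, was at 209 to 290 CPM over the stages. PAX7, a dermomyotome gene, was found in 9 of 27 cells of E18-DZ, 7 of 57 of E21-DZ and at most 3 of any other library.

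Whether the cells changed differently from the rest of their libraries was asked with the difference in log2(CPM + 10) between the cells and all other barcodes of the same library. This comparison was added after the data were seen, and limma was used over the 3403 genes. From E18 to E21, 9 genes moved up (0.264% called higher) and 8 down (0.235% called lower) against the other barcodes, 0.5% in all. LUM, OGN, DCN, COL1A1 and COL1A2 were among the 9. LUM rose more in the cells by 2.28 ± 0.39 (limma adjusted p = 0.00885). Leaving out 1 library gave 9 to 41 calls. COL1A1 kept its call with each left out, while LUM and OGN lost it without E21-ZZ, DCN without E16-ZZ, E18-ZZ or E21-ZZ, and COL1A2 without E18-DZ, E21-ZZ or E21-DZ.

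From E16 to E18, 5 of 3403 genes moved up (0.147% called higher) and 4 down (0.118% called lower), 0.264% in all, and none did without E16-ZZ or without E16-DZ. From E21 to E28 6 moved up (0.176% called higher) and 13 down (0.382% called lower), 0.558% in all, with 6 to 38 calls when 1 library was left out. DES and DCN went down against the other barcodes by 2.52 ± 0.40 and 1.63 ± 0.37 on the log2 scale, and POSTN went up by 2.54 ± 0.54 (limma adjusted p = 0.00362, 0.0486 and 0.0286). DES lost this call without E28-DZ, and DCN and POSTN without any of 5 or more libraries.

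PAX3+ cells with MEOX1 and TCF15 numbered 106 and PAX1+ cells 105. They differ from the MEOX1+TCF15+ cells by the rule itself, so levels are given with no test. Over the 3 libraries compared with PAX3+ cells, 668 genes were higher in the cells of every library and 743 lower. The genes named here are among the 10 of each direction with the most extreme ratios. How many genes would keep 1 sign by chance was not worked out. Against PAX3+ cells in the 3 libraries with at least 20 of each, the cells were higher in CXCL12, a chemokine, with 60.7, 68.0 and 78.9 CPM against 5.78, 28.1 and 4.69 CPM in E16-DZ, E18-ZZ and E18-DZ. PLVAP, a protein of endothelial diaphragms, was at 136, 115 and 223 CPM against 72.3, 44.9 and 23.5 CPM, and ETS1, a factor of endothelium and mesoderm, at 42.9, 52.3 and 59.2 CPM against 20.2, 0 and 9.38 CPM. Those PLVAP levels came from 13, 10 and 5 cells, and the part of endothelial RNA in them was not tested. CDON, a hedgehog and cadherin co-receptor of muscle precursors, was lower, at 0, 26.1 and 13.1 CPM against 31.8, 56.2 and 51.6 CPM.

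PAX1+ cells reached 20 in E18-ZZ alone, so the limit was lowered to 10, after the counts were seen, which took in 5 libraries. In all 5, 198 genes were higher in the cells and 192 lower. Those named are among the 10 of each direction with the most extreme ratios, and the number expected by chance was not worked out. SOX9, a sclerotome and cartilage factor, was lower in the MEOX1+TCF15+ cells of all 5, at 10.7 CPM against 24.1 in E16-DZ, 26.1 against 107 in E18-ZZ, 46.0 against 72.8 in E18-DZ, 76.7 against 151.5 in E21-ZZ and 67.0 against 173 in E21-DZ. UNCX was likewise lower in all 5, by 0.51 to 1.36 on the log2 scale of CPM + 10. DACT2 and NKD1, an inhibitor of WNT signalling, were higher in all 5, by 0.62 to 1.89 and 0.67 to 1.74.

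The change from E16 to E18 was compared between the cells and PAX3+ cells in 4 libraries, with a minimum of 10 cells in place of 20. Of 3498 genes, 10 differed (0.286% called) by edgeR's quasi-likelihood test with library as a block, and DESeq2 called 0. Of these, 5 moved up and 5 down against the PAX3+ cells (0.143% called in each direction). Among them were KRT8, KRT18 and the globins HBE1 and HBZ. Without E16-ZZ no gene passed, and without a block none did. The same comparison with PAX1+ cells was not run, since the E16 libraries held 7 and 12 of them.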

How the data were processed

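Somites and myotomes of 8 pooled samples were profiled with 10x Genomics libraries. The authors aligned reads with Cell Ranger (3.1.0 or 3.0.2 per the file headers) to Sscrofa11.1 with Ensembl release 98 genes and deposited raw UMI counts per gene and barcode, as whole numbers that were neither normalized nor corrected between libraries. Of 90688 barcodes, 82394 passed the study's limits on genes, UMIs and mitochondrial share, and 262 met the rule. The study also removed doublets with DoubletFinder and went on with fewer cells, a step not repeated here. Counts were summed over the cells of each library (121241 to 343115 UMIs) and tested with edgeR 4.0.16 (TMM, filterByExpr, glmQLFTest, stage as a factor and breed in the fit, the 8 rule genes left out), and p-values were adjusted by Benjamini-Hochberg over the 3403 genes tested, with a limit of 0.05. A contrast needed 2 libraries a stage with at least 20 cells. CPM used plain UMI totals. Differences from other barcodes used limma 3.58.1 with 10 CPM added. Scrublet, from scanpy 1.11.5, ranked doublets, and the highest 0.8% per 1000 barcodes were removed only as an alternative. DESeq2 1.42.0, library size scaling, no filter, no breed term, 5% mitochondrial UMIs, 1000 UMIs, 2 UMIs of a rule gene and leaving out each library were other alternatives. Computations used R 4.3.3 and Python 3.11.15. Counts were simulated for E21 against E18 with the fitted spread, and the changed genes were drawn from those above 20 CPM. Of these, 81% of genes changed 4-fold and 89.5% of those changed 8-fold were recovered, among 3062 and 3056 genes tested, with 5 false calls each. At 4-fold the recovery was 76.5% for E18 against E16 and 74% for E28 against E21. It was 59% for the difference from PAX3+ cells, where the changed genes had a higher lower limit. Changes in lower genes were not simulated.

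The cells, the gene lists and the tests were chosen with earlier results of these data known. Named genes are, per contrast, the 10 largest rises and falls past the limit with the same direction in both breeds and a mean of at least 20 CPM, plus members of the fixed lists that passed, or the highest ones of lists where none did. DLL3, CER1, RIPPLY1, TBX6, DACT2, LIN28B and the single markers beyond that rule were named after their values were seen. No protein, promoter or miRNA table was used here, and no sequence is printed. Some genes are not reported here.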

Additional observations from a re-analysis of the deposited data

Results flagged for a closer look

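The share of MEOX1+TCF15+ cells in E21-DZ, 0.559%, lay far from the other 3 late libraries (0.202% to 0.258%), beyond Dixon's limit for 4 values. About 1 in 20 such groups is expected to show this by chance. After thinning to 2000 UMIs the E21-DZ share was 0.0912% and within Dixon's limit.

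Several genes changed differently in the cells and in a compared population. Against PAX3+ cells from E16 to E18 these were 10 genes. On the log2 scale the difference in change was 1.07 for LDHA, 3.52 for HBE1, 3.68 for HBZ, -0.86 for CRABP2, -1.09 for KRT8 and -1.59 for KRT18. All 10 calls were lost without E16-ZZ. With 1 library left out HBE1 ran from -0.32 to 7.62, HBZ from -0.95 to 8.06, KRT8 from -1.97 to -0.36 and KRT18 from -2.65 to -0.73. HBE1 was at 101.2 and 311 CPM in the E16 cells and 826 and 65.7 CPM in the E18 cells, and the part of erythroid RNA was not tested.

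Against all other barcodes 9 genes differed in their change from E16 to E18, among them NES at -0.99, SFRP1 at -1.03 and MEST at 1.34. From E18 to E21 there were 17 genes. LUM differed by 2.28, DCN by 1.90, OGN by 1.87, COL1A1 by 1.76, COL1A2 by 0.83, EGR1 by 1.61 and FOS by 0.88. From E21 to E28 there were 19 genes, with POSTN at 2.54, CRABP1 at 1.90, ENO1 at -0.56, HMGA1 at -0.60, DCN at -1.63 and DES at -2.52.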

How the results depend on the processing

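Calls of stage changes followed the tool and the filter more than the scaling. DESeq2 gave 0, 19 and 11 calls for the 3 stage steps in order, against 3, 106 and 59. Testing genes with any count gave 27, 177 and 109, and 8 between breeds. Removing the highest Scrublet scores gave 21 and 161 for the first 2 steps and 2 between breeds. It left E28-ZZ with 19 cells, under the limit of 20, so 7 libraries were fitted and the third step was not tested. Leaving out 1 library gave 1 to 11, 36 to 138 and 14 to 79 calls, and 1 to 8 between breeds, where 0 passed with all. The difference from PAX3+ cells had 0 calls by DESeq2, 0 without the block, 0 without the highest Scrublet scores, 2 with at least 1000 UMIs and 0 to 12 with 1 library left out. Without E16-ZZ its values for HBE1 and HBZ turned to -0.32 and -0.95, and without E16-DZ they were 7.62 and 8.06. Against other barcodes TMM gave 43 calls from E18 to E21 and 68 from E21 to E28, and leaving out 1 library gave 0 to 19, 9 to 41 and 6 to 38 calls for the 3 steps. The late minus early share turned to 0.0184 points at the 5% mitochondrial limit and 0.0655 without E28, was -0.0679 with at least 2 UMIs of a rule gene (exact permutation p = 0.0571), and ran from -0.113 to 0.00594 with 1 library left out. With all UMIs 98.9% of the E16 and 79.2% of the E21 cells scored as S or G2/M, against means of 97.1% and 81.7% after thinning. The cause of these shifts was not tested.

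The 5% mitochondrial limit and the rule of 2 UMIs left too few cells to fit, and the TBX18 test had no UMI to use. No paired analysis was possible because the labels carry no replicate numbers that tie samples across groups, while populations of the same library were compared within it. With 22 to 57 cells a library, many low genes could not be tested.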

Other observations

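Genes outside the naming rule, chosen after their values were seen, are given here as values. VIM (vimentin), the intermediate filament of mesenchyme, was at 828 and 957 CPM in the cells at E16, 1281 and 1393 at E18, 2365 and 2436 at E21, then 4611 and 5629 CPM at E28, with no overlap between stages. It rose by 0.91 ± 0.19 (SE) from E18 to E21 and by 1.07 ± 0.19 from E21 to E28 on the log2 scale (edgeR adjusted p = 0.013 and 0.00377). PRTG (protogenin), a receptor of young paraxial mesoderm and neural tube, was at 98.6 to 136 CPM in the 4 early libraries and 0 to 29.5 CPM in the 4 late ones. It fell by 2.42 ± 0.48 from E18 to E21 (edgeR adjusted p = 0.0084).

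The retinoic acid list as a whole did not separate the stages, with a summed level of 1592 to 2346 CPM in the early cells and 1739.9 to 2078 CPM in the late ones. CRABP1, which binds retinoic acid, was at 41.4 to 315 CPM in the early cells and 411 to 1006 CPM in the late ones. STRA6, which carries retinol into cells, was at 59.8 and 107 CPM at E16 and 47.0 and 46.0 CPM at E18, against 0 to 17.7 CPM in the 4 late libraries. All other barcodes held 10.5 and 16.0 CPM of STRA6 at E16. CRABP2, which shuttles retinoic acid to the nucleus, was at 558 to 1286 CPM in the cells of the 8 libraries and at 349 to 715 CPM in all other barcodes, and it was higher in the cells of every library. MOXD1, a monooxygenase-like enzyme, was at 147 and 275 CPM in the E16 cells against 29.4 and 40.7 CPM in all other barcodes, and at 66.0 and 90.8 CPM against 90.1 and 104 CPM at E28. DMRT2, a factor of dermomyotome and somite patterning, was at 11.7 to 110 CPM in the cells and 1.48 to 45.4 CPM in all other barcodes, and higher in the cells of all 8 libraries.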
